A study of Rattus norvegicus with 6 samples.

Results

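Neuropeptides that sensory neurons are known to make after axon injury were followed through bulk RNA sequencing of rat dorsal root ganglia. The set held 7 genes, found by their symbols among the 22864 genes of the deposited table: Npy, Gal, Vip, Nts, Adcyap1 and Crh, which encode secreted peptides, and Cckbr, which encodes a receptor of the peptide cholecystokinin. The ganglia were the L4 to L6 ganglia of the treated side of wild-type (WT) male rats. Strain and age were not stated in the labels. An O-ring of 5.5 mm inner diameter was tightened on one hind limb close to the ankle for 3 h in CPIP+Veh and CPIP+ETA, which is the model called chronic post-ischaemia pain. Rats of Sham+Veh had the same pentobarbital anaesthesia (40 mg/kg), which all groups shared, but no ring. CPIP+ETA received etanercept, a soluble receptor that binds tumour necrosis factor, intrathecally each day from 2 days after the procedure. The other groups received vehicle, and tissue was taken on day 7. Each group had 2 libraries, and the labels do not say whether these came from separate or pooled animals, so that p-values measure the spread between these libraries, which may be technical.

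A ganglion contains the cell bodies of the neurons that carry touch, temperature and pain from the limb, together with glia and immune cells. Neuropeptides are made as longer precursors, cut inside dense-core vesicles and released to act on G protein-coupled receptors. After a peripheral axon is cut, sensory neurons are known to change their peptides, with neuropeptide Y, galanin, VIP and PACAP appearing or increasing in them. Atf3, a transcription factor that marks injured sensory neurons, serves below as a reference.

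Library totals ran from 18284891 to 19981081 expected counts. Levels are given as CPM, the usual unit of read counts scaled to sequencing depth, here with TMM factors between libraries. As a check of the tissue label, all 19 sensory neuron markers were detected in every library, at a summed level of 41594 to 46256 CPM. All 7 genes passed the filter on low counts (about 10 reads in at least 2 libraries). Vip and Cckbr reached the filter's 0.523 CPM in only 3 libraries each, both CPIP+Veh libraries among them, so that their passing depended on the group in which they were high.

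In CPIP+Veh, the levels of 6 of the 7 genes lay above both Sham+Veh libraries, where 17.6% of all genes tested lay in that way. The largest ratios belonged to Vip and Npy. Crh was the exception, and Adcyap1 was already abundant in sham, so that the name induced neuropeptides fits these data unevenly. In CPIP+ETA the levels of Gal, Vip, Nts, Adcyap1, Crh and Cckbr overlapped those of Sham+Veh. For Vip this rested on 1 read each in CPIP+ETA 1 and Sham+Veh 2. Npy lay above sham in both CPIP+ETA libraries, as did 17.2% of all genes tested. No member was called by edgeR in any comparison at an adjusted p under 0.05, a threshold that 0.0193% of genes passed in each comparison with Sham+Veh and 0% passed for CPIP+ETA against CPIP+Veh. At unadjusted p under 0.05 the member counts were 5, 4 and 1 for CPIP+Veh against Sham+Veh, CPIP+ETA against CPIP+Veh and CPIP+ETA against Sham+Veh, where the shares of all genes were 4.94%, 5.15% and 6.37%. The counts of 5 and 4 include Vip and Cckbr, which passed the filter through CPIP+Veh. In bulk tissue, fewer cells making a transcript and less of it per cell cannot be told apart.

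**Figure D1:**
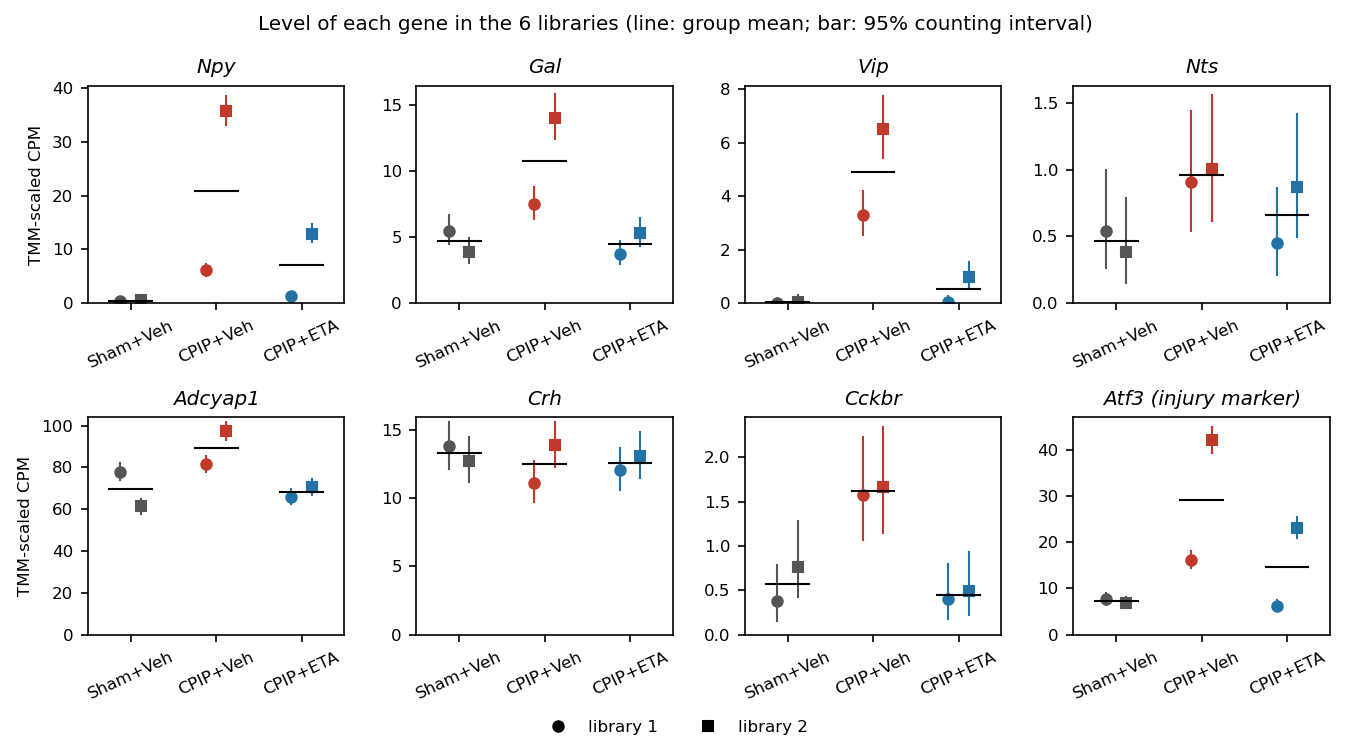
Level of the 7 genes and of Atf3 in TMM-scaled CPM (linear axes from 0) in each of the 6 libraries, with circles for library 1, squares for library 2, vertical bars for the 95% counting interval and black lines for group means. CPIP+Veh 2 is the highest library for all 7 genes, and the CPIP+Veh libraries lie far apart for Npy (6.08 and 35.8 CPM) but close together for Cckbr (1.57 and 1.66 CPM).

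Npy encodes neuropeptide Y, a peptide of sympathetic neurons that large sensory neurons are known to begin making after nerve injury. It was counted 6 and 11 times in Sham+Veh, 120 and 709 times in CPIP+Veh, and 28 and 237 times in CPIP+ETA. This gave 0.325 and 0.602 CPM in sham, 6.08 and 35.8 CPM in CPIP+Veh, and 1.41 and 12.9 CPM in CPIP+ETA. All 4 ischaemia libraries lay above both sham libraries, and CPIP+Veh and CPIP+ETA overlapped because CPIP+ETA 2 exceeded CPIP+Veh 1. The means were 0.463 ± 0.20 CPM in sham, 20.9 ± 21 CPM in CPIP+Veh and 7.16 ± 8.1 CPM in CPIP+ETA (SD, n = 2), so that the spread within each ischaemia group was as large as its mean. Against sham, the edgeR log2 fold change was 5.48 (SE 1.4, adjusted p = 0.85) in CPIP+Veh and 3.92 (SE 1.5, adjusted p = 0.767) in CPIP+ETA. DESeq2, which called 0.315% of all genes for CPIP+Veh against Sham+Veh and 2 members, called Npy there (adjusted p = 0.0494). That call ended without Sham+Veh 1 or CPIP+Veh 2 (adjusted p = 1 for each), Sham+Veh 2 (0.583) or CPIP+Veh 1 (0.0717). Between CPIP+ETA and CPIP+Veh the edgeR log2 fold change was -1.56 (SE 1.0, adjusted p = 0.938), and without CPIP+Veh 2 it turned to 0.23.

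Vip encodes vasoactive intestinal peptide, which relaxes vessels and is scarce in uninjured lumbar ganglia. It was counted 0 and 1 times in Sham+Veh, 65 and 129 times in CPIP+Veh, and 1 and 18 times in CPIP+ETA. Levels were 3.29 and 6.51 CPM in CPIP+Veh (mean 4.90 ± 2.3, SD, n = 2) and 0.0504 and 0.980 CPM in CPIP+ETA, and the upper 95% counting bound of the sham library with 0 reads was 0.200 CPM. Both CPIP+Veh libraries stood clear of the other 4, and CPIP+ETA 1 could not be told from sham at this depth. Summed over libraries, the CPIP+Veh to Sham+Veh ratio was 180 with a 95% counting interval from 31.9 to 7150, since sham held a single read. The same ratio for CPIP+ETA was 18.3 (2.90 to 759), and 18 of its 19 reads came from CPIP+ETA 2. DESeq2 called Vip for CPIP+Veh against Sham+Veh (adjusted p = 0.00802), where edgeR gave an adjusted p of 0.477. The DESeq2 call ended without Sham+Veh 1 (adjusted p = 0.141), Sham+Veh 2 (0.542) or CPIP+Veh 2 (0.308). CPIP+ETA was below CPIP+Veh by an edgeR log2 fold change of -3.26 (SE 0.88, adjusted p = 0.938).

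Gal encodes galanin, a peptide that acts on galanin receptors to restrain or promote firing according to the receptor. Its level was 5.47 and 3.89 CPM in Sham+Veh, 7.49 and 14.0 CPM in CPIP+Veh, and 3.73 and 5.28 CPM in CPIP+ETA. The CPIP+Veh libraries were the highest, while the sham and etanercept libraries interleaved. Means were 4.68 ± 1.1, 10.8 ± 4.6 and 4.50 ± 1.1 CPM (SD, n = 2). The edgeR log2 fold change was 1.20 (SE 0.34, adjusted p = 0.938) for CPIP+Veh against Sham+Veh and -1.26 (SE 0.34, adjusted p = 0.938) for CPIP+ETA against CPIP+Veh. It was -0.06 (SE 0.36, adjusted p = 0.989) for CPIP+ETA against Sham+Veh, with a sign that changed with the library left out.

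Nts encodes neurotensin, a peptide that lowers body temperature and pain responses when given centrally. It was rare, with 10 and 7 reads in Sham+Veh, 18 and 20 with CPIP+Veh, 9 and 16 with CPIP+ETA, or 0.541 and 0.383, 0.911 and 1.01, and 0.453 and 0.871 CPM. The CPIP+Veh libraries were the highest, but CPIP+ETA 2 came near them and the counting intervals of all 6 libraries overlapped. The edgeR log2 fold change was 1.04 (SE 0.48, adjusted p = 0.938) for CPIP+Veh against Sham+Veh. With etanercept it was -0.54 (SE 0.46, adjusted p = 0.938) against CPIP+Veh. Summed over libraries, the ratio of reads scaled to library size was 2.08 (95% counting interval 1.14 to 3.92) for CPIP+Veh to Sham+Veh and 0.681 (0.394 to 1.16) for CPIP+ETA to CPIP+Veh.

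Adcyap1 encodes PACAP, a peptide related to VIP that shares its receptors and is present in small sensory neurons without injury. Its level was 78.0 and 61.3 CPM in Sham+Veh, 81.6 and 97.3 CPM in CPIP+Veh, and 65.9 and 70.7 CPM in CPIP+ETA. The CPIP+Veh libraries were again the highest, but CPIP+Veh 1 exceeded Sham+Veh 1 by less than the sham libraries differed from each other. Its edgeR log2 fold change was 0.36 (SE 0.13, adjusted p = 0.938) for CPIP+Veh against Sham+Veh and -0.39 (SE 0.13, adjusted p = 0.938) for CPIP+ETA against CPIP+Veh. Against Sham+Veh, CPIP+ETA gave -0.03 (SE 0.13, adjusted p = 0.982).

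Crh encodes corticotropin-releasing hormone, which drives the pituitary stress axis. It stood at 13.8 and 12.8 CPM in Sham+Veh, 11.1 and 13.9 CPM in CPIP+Veh, and 12.0 and 13.1 CPM in CPIP+ETA. The groups overlapped in every comparison, and the highest and the lowest library were both of CPIP+Veh. The edgeR log2 fold changes were -0.09 (SE 0.13, adjusted p = 0.968) for CPIP+Veh and -0.08 (SE 0.13, adjusted p = 0.942) for CPIP+ETA against Sham+Veh. Between the ischaemia groups it was 0.01 (SE 0.13, adjusted p = 0.996).

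Cckbr encodes the cholecystokinin B receptor, a receptor known to increase in sensory neurons after axotomy and to oppose opioid analgesia. It had 7 and 14 reads in Sham+Veh, 31 and 33 with CPIP+Veh, 8 and 9 with CPIP+ETA, or 0.379 and 0.766, 1.57 and 1.66, and 0.403 and 0.490 CPM. The CPIP+Veh libraries were close together and lay above the other 4, which interleaved. The edgeR log2 fold change was 1.49 (SE 0.43, adjusted p = 0.938) for CPIP+Veh against Sham+Veh. With etanercept it was -1.84 (SE 0.44, adjusted p = 0.938) against CPIP+Veh, and for CPIP+ETA against Sham+Veh -0.36 (SE 0.48, adjusted p = 0.928). Its peptide ligand Cck was itself rare, at 0.453 to 0.706 CPM in the 6 libraries.

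**Figure D2:**
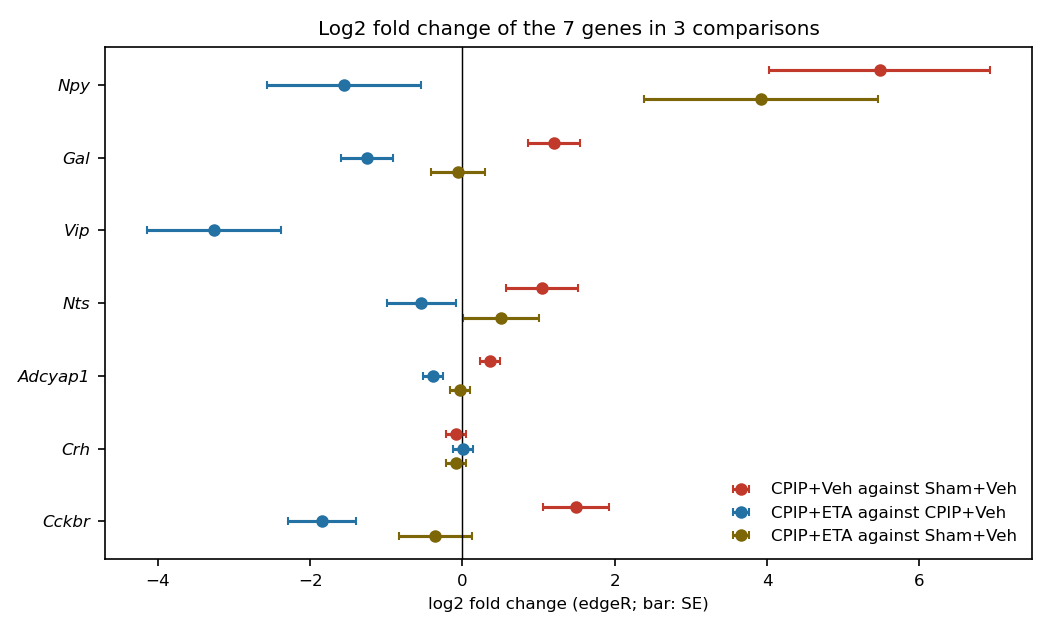
Log2 fold change of the 7 genes from edgeR (points) with the SE (bars) in the 3 comparisons. Vip is left out of the comparisons with Sham+Veh because sham held 1 read. The points of every other gene lie on opposite sides of 0 in the first and second comparison, which share the CPIP+Veh libraries. Those of Crh lie nearer to 0 than their SE.

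Set side by side, 5 of the 7 genes (Gal, Vip, Nts, Adcyap1 and Cckbr) had both CPIP+Veh libraries above all 4 others, as did 6.70% of all genes tested. Vip and Cckbr passed the filter through CPIP+Veh, and without them the count was 3 of 5. Nts, kept among these, reached the filter level in 4 libraries but could not be fitted with only CPIP+ETA and Sham+Veh. With Nts also left out, Gal and Adcyap1 had the pattern and Npy and Crh did not. The members were chosen with earlier results of these libraries known, so that these counts are a description. The comparison with sham and that with etanercept both use the CPIP+Veh libraries, and are therefore not independent. Of the members at an unadjusted p under 0.05, the 5 were higher in CPIP+Veh than in Sham+Veh, as were 2.34% of all genes. The 4 were lower in CPIP+ETA than in CPIP+Veh, as were 2.73% of all genes. Both counts include Vip and Cckbr, which passed the filter through CPIP+Veh. The other members were Npy, Gal and Adcyap1 in the first comparison and Gal and Adcyap1 in the second. The 1 member for CPIP+ETA against Sham+Veh was Npy, where 2.64% of all genes were higher. Of the 15531 genes, edgeR and limma-voom called 0 for CPIP+ETA against CPIP+Veh (800 at an unadjusted p under 0.05 in edgeR). DESeq2 called 21 there (0.135%) and 0.322% for CPIP+ETA against Sham+Veh, with 0 members in either. Gal, Vip, Nts, Adcyap1 and Cckbr lay below both CPIP+Veh libraries in both CPIP+ETA libraries, as 16.9% of all genes did, and Npy alone lay above both Sham+Veh libraries, as 17.2% did.

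The libraries of a group differed for some of these genes by more than counting error, as did those of many genes: the 95% counting interval of the ratio left out 1 for 22.3% of genes in Sham+Veh, 24.2% in CPIP+Veh and 31.9% in CPIP+ETA. In CPIP+Veh, library 2 exceeded library 1 for all 7 genes, where 50.5% of all genes tested did, and the same held for CPIP+ETA, where 50.1% did. In Sham+Veh library 2 was higher for 3 of the 7, beside 51.2% of all genes. CPIP+Veh 2 was the highest of the 6 libraries for all 7 genes and for 16.1% of genes tested. For Npy the ratio of library 2 to library 1 was 5.89 (95% counting interval 4.84 to 7.20) in CPIP+Veh and 9.15 (6.17 to 14.1) in CPIP+ETA. Npy was thus among the 2.09% of genes in CPIP+Veh, and the 2.61% in CPIP+ETA, whose library 2 was at least 2 times library 1 (1.78% in Sham+Veh). Atf3 was split in the same direction, at 16.3 and 42.1 CPM in CPIP+Veh (ratio 2.59, 2.27 to 2.95) and 6.20 and 23.1 CPM in CPIP+ETA (3.73, 3.04 to 4.59). Its sham libraries, at 7.69 and 6.90 CPM, had a ratio of 0.897 (0.700 to 1.15). Across the 4 ischaemia libraries, Npy and Atf3 had the same order, from CPIP+ETA 1 through CPIP+Veh 1 and CPIP+ETA 2 to CPIP+Veh 2. Gal was split less in CPIP+Veh (1.87, 1.53 to 2.30), as was Vip (1.98, 1.46 to 2.71), and the interval for Cckbr (1.06, 0.630 to 1.79) and for Nts (1.11, 0.556 to 2.22) included 1. In CPIP+ETA the ratio of Vip was 19.5 (3.07 to 811), from 1 and 18 reads.

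**Figure D3:**
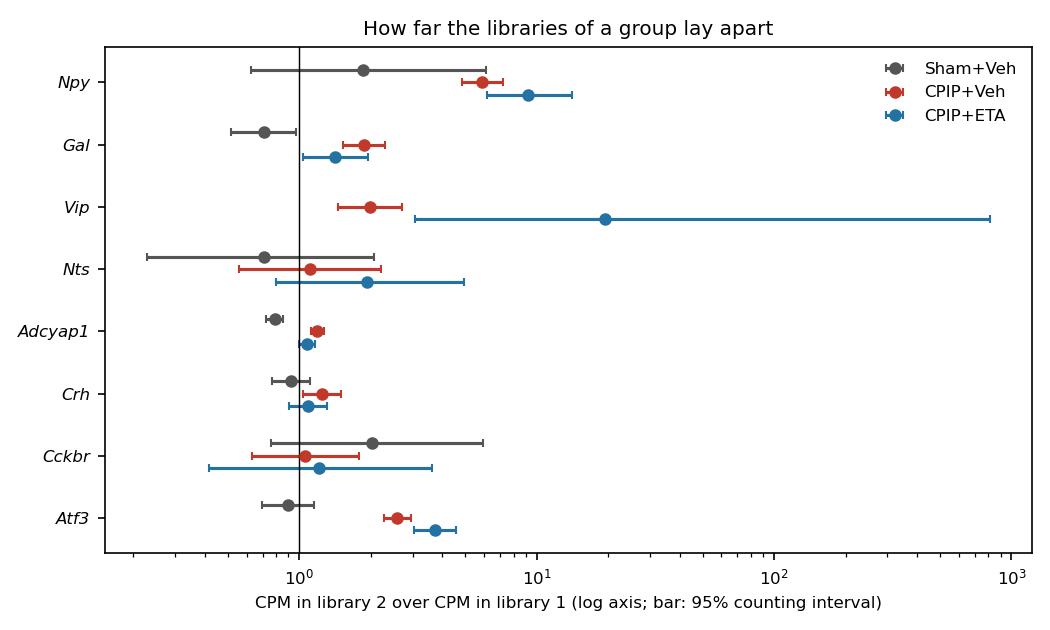
CPM in library 2 divided by CPM in library 1 (log axis) for the 7 genes and Atf3 in each group, with 95% counting intervals as bars. Npy in CPIP+Veh (5.89) and CPIP+ETA (9.15) and Atf3 (2.59 and 3.73) lie well to the right of 1. The point farthest to the right is Vip in CPIP+ETA (19.5), from 1 and 18 reads. Cckbr lies near 1 in CPIP+Veh, and Vip in Sham+Veh, with 0 and 1 reads, has no ratio.

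The promoters of these genes were looked at because most of the 7 shared the same high group. A 300-base window, from 250 bases before to 50 after the annotated start, was matched by gene identifier for 6 of the 7 genes in RefSeq, assembly GRCr8. All but Crh had an entry. The data use another build, and coordinates are therefore left out. Each window was searched on both strands for TGACG, the core of the cyclic AMP response element bound by CREB and ATF proteins, for the full 8-base element that contains this core, and for TGANTCA, the AP-1 element bound by Jun and Fos. The core stood in 22.0% of 27457 rat promoters of that length, the full element in 1.91% and the AP-1 letters in 7.33%. Among the members, the windows of Gal, Vip and Nts held the core and that of Nts also the AP-1 letters, while the full element was in none of the 6. The 3 windows with a match are printed 5′ to 3′ on the strand of the gene, with the matched letters in capitals. Vip is on the plus strand, and Gal and Nts are on the minus strand.
Vip: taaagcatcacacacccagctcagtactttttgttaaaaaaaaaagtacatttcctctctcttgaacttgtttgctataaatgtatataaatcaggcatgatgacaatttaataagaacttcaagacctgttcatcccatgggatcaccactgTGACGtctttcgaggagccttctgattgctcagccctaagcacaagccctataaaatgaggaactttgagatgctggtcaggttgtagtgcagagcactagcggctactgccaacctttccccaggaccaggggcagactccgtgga
Gal: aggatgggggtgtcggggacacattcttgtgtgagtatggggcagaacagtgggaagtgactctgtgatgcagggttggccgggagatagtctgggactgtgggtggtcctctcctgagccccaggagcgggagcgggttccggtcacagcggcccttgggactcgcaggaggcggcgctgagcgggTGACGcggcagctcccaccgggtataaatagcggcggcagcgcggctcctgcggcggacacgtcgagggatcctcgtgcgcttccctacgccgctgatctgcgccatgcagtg
Nts: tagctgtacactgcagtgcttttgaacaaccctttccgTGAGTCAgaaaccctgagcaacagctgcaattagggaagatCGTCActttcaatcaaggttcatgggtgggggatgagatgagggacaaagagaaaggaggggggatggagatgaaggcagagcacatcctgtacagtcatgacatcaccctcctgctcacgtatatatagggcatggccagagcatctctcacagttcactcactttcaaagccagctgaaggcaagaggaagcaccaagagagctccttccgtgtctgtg
Counted from the start site, the first matched base stood at -97 in Vip and at -63 in Gal. In Nts the AP-1 letters began at -212 and the core, on the opposite strand, at -171. A match of letters is a description of the window and not evidence that a factor is bound there.

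Genes with the most similar course over the 6 libraries were found from the root mean square (RMS) difference of log2(CPM + 0.5) after each gene was centred on its own mean. All genes share the same 6 libraries, and near neighbours are found for any gene among 15531. For Npy, whose own RMS deviation from its mean was 1.98, the nearest were gene-Katnbl1, spelled as in the table (1.01), Atf3 (1.06) and Stac2 (1.07). For Vip, with a deviation of 1.49, they were Stac2 (0.656), Csrp3 (0.674) and Atf3 (0.720). Stac2 encodes an adaptor of voltage-gated calcium channels and Csrp3 a muscle LIM protein that injured neurons also make. Stac2 stood at 1.41 and 0.876 CPM in Sham+Veh, 3.09 and 9.99 CPM in CPIP+Veh, and 0.907 and 3.54 CPM in CPIP+ETA. Its libraries therefore took the same order as those of Atf3 and Npy within the ischaemia groups.

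For Gal (deviation 0.603) the nearest genes were Crisp1 (0.294), Mybpc1 (0.300) and the cell-cycle gene Ccna2 (0.304). For Adcyap1 (0.217) they were Vash2 (0.0527), the growth cone gene Gap43 (0.0562) and the glucose transporter gene Slc2a4 (0.0604). Gap43 stood at 266.5 and 236.6 CPM in Sham+Veh, 294.7 and 344.5 CPM in CPIP+Veh, and 248.3 and 259.0 CPM in CPIP+ETA, highest in both CPIP+Veh libraries like Adcyap1. For Nts (0.300) the nearest were Kif24 (0.0675), PVR (0.117) and Steap2 (0.118), and for Cckbr (0.538) the chemokine gene Cxcl9 (0.232), Ttll13 (0.243) and Adam4 (0.262). For Crh (0.107), which hardly varied, they were Rangrf (0.0308), Stra13 (0.0315) and Atat1 (0.0327). Npy and Vip were nearer to each other (0.904) than either was to another member, and the next was Gal to Vip at 0.972.

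Receptors of these peptides were listed to see whether the receiving side moved as well. Of 17 receptor genes, 16 were in the table and 13 were tested, and edgeR called 0 in any of the 3 comparisons. At an unadjusted p under 0.05 there was 1 higher in CPIP+Veh than in Sham+Veh, 1 higher and 1 lower in CPIP+ETA than in CPIP+Veh, and 0 in CPIP+ETA against Sham+Veh. Over all genes the shares were 2.34%, 2.42% and 2.73%, and 6.37% in either direction for CPIP+ETA against Sham+Veh. The median log2 fold change was -0.04 for CPIP+Veh against Sham+Veh and 0.10 for CPIP+ETA against CPIP+Veh, beside -0.00314 and -0.00158 over all genes. Of the 16, 12 reached 1 CPM in at least 2 libraries, while Npy4r, Galr3 and Vipr1 were not tested, with 4, 3 and 33 reads in all. Crhr1 was tested but stayed at 0.487 to 0.857 CPM.

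Npy2r, a receptor of neuropeptide Y that inhibits transmitter release from sensory terminals, had the lowest p in both comparisons of CPIP+Veh. It stood at 11.7 and 9.80 CPM in Sham+Veh, 14.8 and 14.8 CPM in CPIP+Veh, and 9.97 and 10.4 CPM in CPIP+ETA. Both CPIP+Veh libraries were above the other 4, as for Gal and Cckbr. Its edgeR log2 fold change was 0.46 (SE 0.12, adjusted p = 0.824) against sham and -0.54 (SE 0.12, adjusted p = 0.924) for CPIP+ETA against CPIP+Veh. The other receptors of neuropeptide Y were Npy1r, at 46.9 to 56.4 CPM over the 6 libraries, and Npy5r, at 2.94 to 7.19 CPM. Npy5r had a log2 fold change of 0.77 (SE 0.29, edgeR adjusted p = 0.938) for CPIP+ETA against CPIP+Veh, and its highest library was CPIP+ETA 2.

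The galanin receptors Galr1 and Galr2 ranged over 2.62 to 3.27 and 10.3 to 12.9 CPM. Galr2, which couples to excitatory signalling, had a log2 fold change of 0.22 (SE 0.12, edgeR adjusted p = 0.948) in CPIP+Veh against Sham+Veh. Vipr2, shared by VIP and PACAP, ranged over 4.68 to 5.79 CPM, and Adcyap1r1, the receptor selective for PACAP, over 5.11 to 8.23 CPM. The neurotensin receptors Ntsr1 and Ntsr2 ranged over 7.47 to 10.1 and 4.32 to 6.45 CPM, and Sort1, a sorting receptor that also binds neurotensin, over 118.5 to 132.8 CPM. Sort1 had log2 fold changes of 0.12 (SE 0.052, edgeR adjusted p = 0.938) for CPIP+ETA against CPIP+Veh and 0.09 against Sham+Veh. Ntsr2 had 0.30 (SE 0.19, edgeR adjusted p = 0.851) for CPIP+ETA against Sham+Veh. Crhr2 ranged over 0.958 to 1.75 CPM, with -0.50 (SE 0.32, edgeR adjusted p = 0.948) in CPIP+Veh against sham, and Cckar over 2.78 to 4.28 CPM.

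**Figure D4:**
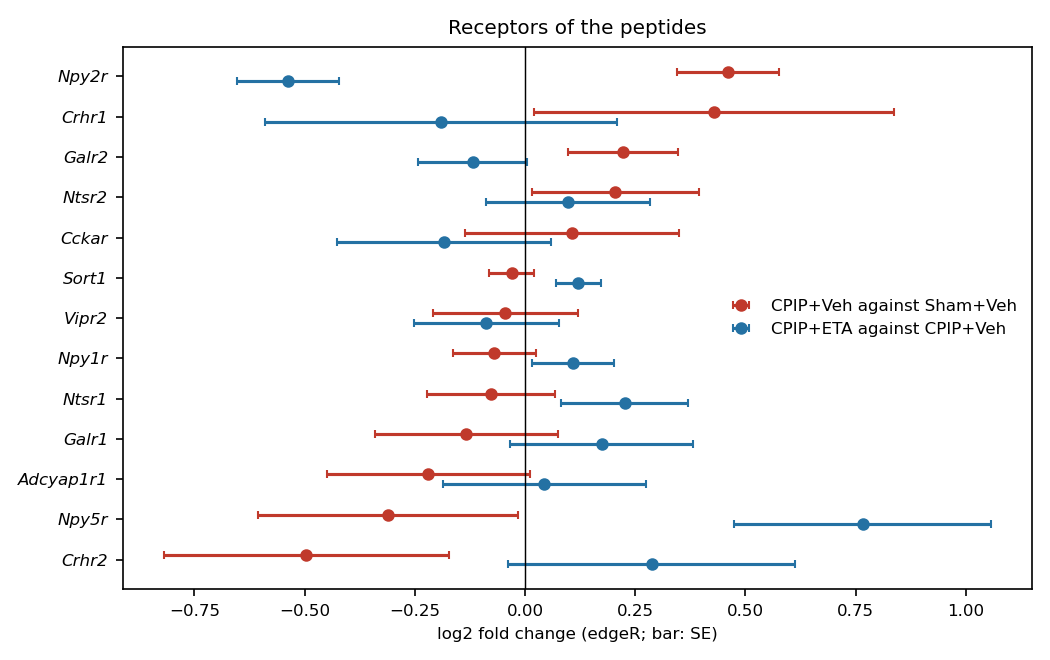
Log2 fold change from edgeR (points) with the SE (bars) of the 13 tested receptors of the peptides, for CPIP+Veh against Sham+Veh and CPIP+ETA against CPIP+Veh. Npy2r, at 0.46 and -0.54, is the receptor farthest from 0 relative to its SE in both, and none passed the adjusted threshold.

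The machinery that cuts and stores neuropeptides was present throughout. All 20 genes of this list were tested, their summed level was 3363 to 3565 CPM, and edgeR called 0 in each comparison. The median log2 fold change was -0.03 for CPIP+Veh against Sham+Veh, 0.01 for CPIP+ETA against CPIP+Veh and 0.02 for CPIP+ETA against Sham+Veh. For CPIP+Veh against Sham+Veh the lowest p belonged to the granins Chgb (-0.17, SE 0.090) and Vgf (0.42, SE 0.24) and to Resp18 (-0.15, SE 0.089). Between CPIP+ETA and CPIP+Veh it belonged to the chaperone Scg5 (0.15, SE 0.050), the convertase Pcsk2 (0.13, SE 0.068) and Vgf (-0.42, SE 0.24). Between CPIP+ETA and Sham+Veh it belonged to Nucb2 (-0.16, SE 0.064), the amidating enzyme Pam (-0.12, SE 0.054) and Ptprn2 (0.20, SE 0.091). Vgf, a granin induced by neurotrophins, stood at 45.2 and 58.4 CPM in Sham+Veh, 56.2 and 82.0 CPM in CPIP+Veh, and 42.5 and 61.0 CPM in CPIP+ETA. Its groups overlapped in every comparison.

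Among other neuropeptide precursors, more lay below than above sham in CPIP+Veh. Of 44 listed, 43 were in the table and 21 were tested, and edgeR called 0 in each comparison. In CPIP+Veh against Sham+Veh 5 of the 21 lay above 0, with a median log2 fold change of -0.22, beside 49.0% above 0 and a median of -0.00314 over all genes. Of the 16 below 0, 12 had an SE larger than the size of their log2 fold change. Nmb, the neuromedin B precursor of itch and pain neurons, had the lowest p (-0.27, SE 0.070), with 57.6 and 56.3 CPM in sham, 44.5 and 49.9 CPM in CPIP+Veh, and 49.8 and 50.3 CPM in CPIP+ETA. Both sham libraries were the highest. Tac1, the substance P precursor, had 0.23 (SE 0.11) and Nppa, a natriuretic peptide, 0.51 (SE 0.28). The lowest p for CPIP+ETA against CPIP+Veh belonged to Sst (0.33, SE 0.14), Sct (-1.10, SE 0.55) and Penk (0.39, SE 0.20), and the median was -0.08. That for CPIP+ETA against Sham+Veh belonged to Sct (-1.55, SE 0.53), Nmb (-0.19, SE 0.070) and Cartpt (-0.64, SE 0.30), and the median was -0.19. Among partner ligands, peptidases and binding proteins, 4 of 12 were tested, Nln, Dpp4, Mme and Cck, and edgeR called 0. Nln, which cleaves neurotensin, had 0.11 (SE 0.084) for CPIP+Veh against Sham+Veh, and Mme, the peptidase neprilysin, -0.11 (SE 0.16) for CPIP+ETA against CPIP+Veh. Dpp4, a peptidase that trims neuropeptide Y, had -0.87 (SE 0.40) for CPIP+ETA against Sham+Veh, with 7.91 and 14.8 CPM in the sham libraries and 5.19 and 7.30 CPM with etanercept.

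Markers of other cells and of injury were summed per library beside these results. The 40 axon injury and regeneration genes, a list chosen with their behaviour in these libraries known, summed to 5783 and 5889 CPM in Sham+Veh, 6394 and 6657 with CPIP+Veh, 6284 and 6089 with CPIP+ETA. Of the 36 tested, edgeR called 0, and at an unadjusted p under 0.05 there were 15 higher and 1 lower for CPIP+Veh against Sham+Veh and 9 lower for CPIP+ETA against CPIP+Veh. Over all genes these shares were 2.34%, 2.59% and 2.73%. The sum was mostly Tubb3, and without it the sums over the remaining 39 were 2178 and 2241, 2360 and 2656, and 2201 and 2395 CPM, where CPIP+Veh and CPIP+ETA overlapped. The part of any of these lists in the members' values was not tested.

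The 14 macrophage markers, all detected in every library, summed to 551 and 474 CPM in Sham+Veh, 626 and 628 CPM in CPIP+Veh, and 508 and 607 CPM in CPIP+ETA. Its largest share was Lyz2, and the other 13 summed to 236.7 and 221.8, 209.9 and 246.3, and 266.6 and 284.0 CPM, highest with etanercept. For CPIP+ETA against CPIP+Veh 2 were higher at an unadjusted p under 0.05, Cd163 and Mrc1, and 1 lower, Lyz2, with a median log2 fold change of 0.07. For CPIP+Veh against Sham+Veh 1 was higher. Over all genes 2.42% were higher and 2.73% lower in CPIP+ETA than in CPIP+Veh, and 2.34% were higher in CPIP+Veh than in Sham+Veh. The 17 measured mast cell, platelet and lymphocyte markers, with 13 to 15 detected per library and Gp9 at 0 in all, summed to 80.2 and 76.4, 82.0 and 86.3, and 76.0 and 63.8 CPM. Without Kit, which made up most of it, the sums were 9.48 and 13.0, 10.5 and 12.3, and 10.3 and 9.09 CPM. There Sham+Veh overlapped both other groups. With and without Kit, both CPIP+ETA libraries lay below both CPIP+Veh libraries. Of the 11 tested, 2 were lower in CPIP+ETA than in CPIP+Veh at an unadjusted p under 0.05 in edgeR, Kit and Ms4a2, and 0 higher. Against Sham+Veh 2 were lower, Ms4a2 and Cpa3, and 0 higher. Over all genes the lower shares were 2.73% and 3.73%. Of the same 11, 4 lay above 0 in CPIP+ETA against CPIP+Veh and 5 against Sham+Veh. Cd3e was among both, at 1.60 (SE 0.74) against Sham+Veh. The 19 spinal cord markers, with 14 to 17 detected, Lbx1 at 0 in all and the inhibitory neuron marker Slc32a1 at 0 in 5 libraries, summed to 89.6 and 88.8, 93.3 and 90.6, and 87.6 and 87.2 CPM. Tlx3 made up most of each sum, and whether these transcripts came from spinal cord was not tested. Without Tlx3 the markers summed to 39.9 and 40.4, 43.0 and 39.8, and 32.5 and 36.6 CPM, where sham and CPIP+Veh overlapped. With and without Tlx3, the CPIP+ETA libraries were the lowest. Of the 9 tested, 1, Gad1, was lower in CPIP+ETA at an unadjusted p under 0.05 in edgeR, against CPIP+Veh and against Sham+Veh. Over all genes 2.73% and 3.73% were lower in this way.

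The 16 sympathetic and autonomic markers summed to 105.5 and 112.5 CPM in Sham+Veh, 100.1 and 117.8 with CPIP+Veh, 113.3 and 105.4 with CPIP+ETA, with 12 to 14 detected, and the groups overlapped. Dbh, the enzyme that makes noradrenaline, was at or below 0.108 CPM in every library, and Phox2a and Hand2 were at 0. Others of the list were higher: Slc18a2, a vesicular monoamine transporter, ran from 41.4 to 46.9 CPM, the nicotinic receptor gene Chrna3 from 37.5 to 54.1 CPM with its highest value in CPIP+Veh 2, and Th from 0.353 CPM in CPIP+Veh 2 to 2.48 CPM in CPIP+Veh 1. The part of such cells in the Npy values was not tested. The 6 measured red blood cell markers summed to 28.9 and 35.8 CPM in Sham+Veh, 12.1 and 34.3 with CPIP+Veh, 108.0 and 68.9 with CPIP+ETA. Hbb made up most of each sum. They were highest with etanercept, and their part in the difference between CPIP+ETA and CPIP+Veh was not tested. The 13 satellite glia and Schwann cell markers summed to 13854 and 16044, 15865 and 13280, and 11293 and 15848 CPM, and overlapped between groups.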

How the data were processed

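The 6 libraries, 2 per group, were assigned by column name to Sham+Veh, CPIP+Veh and CPIP+ETA. The authors deposited expected counts, which are estimates and hold fractions of reads. Per the submitters' processing notes the build is Rnor_6.0, while aligner, counting program, strandedness and annotation were not named in what was read. Per the labels' protocols RNA had a RIN of at least 8.0. Of the 22864 genes, 2907 had no entry for any library and were taken to be 0. Counts were rounded and tested in R 4.3.3 with edgeR 4.0.16 (quasi-likelihood F-test, TMM, filterByExpr with a minimum count of 10 and total of 15, 1 fit of all 6 libraries, 15531 genes), with Benjamini-Hochberg adjustment over all genes and calls at an adjusted p under 0.05. Each standard error was derived from the fold change and its F statistic. With library totals of 18284891 to 19981081, 10 reads make about 0.523 CPM, and 95% intervals (exact Poisson or binomial) cover counting error only. The fit was tested on simulated data. Alternatives were RLE or library-total scaling, DESeq2 1.42.0, limma-voom (limma 3.58.1), other filters, only 2 groups, a replicate block, leaving out single libraries and a threshold of 0.1. DESeq2 with each library left out, marker sums without a list's most abundant gene, and the member count without Vip and Cckbr were added after seeing the data.

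The members and gene lists were chosen with earlier results of these data known. The rule named all 7 members, Atf3, the 3 genes with the lowest p per comparison in 4 peptide lists, receptors at 1 CPM in at least 2 libraries, and the 3 genes most like each member. Gap43 and Stac2 levels and other marker values were chosen for print after they were seen. Promoters came from RefSeq (GRCr8). Precursor protein sequences were not used here. Figures were drawn with matplotlib 3.10.9.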

Additional observations from a re-analysis of the deposited data

How the results depend on the processing

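Over 309 values of a member's log2 fold change under the alternatives, 299 kept their direction. These include the values at the threshold of 0.1, which reuse the main fit and could not change direction. Of the 309, 2 passed the threshold, both in DESeq2 (Npy and Vip, CPIP+Veh against Sham+Veh). All 10 reversals left out 1 library. Without CPIP+Veh 1, Crh turned to 0.064 against sham, and CPIP+ETA against CPIP+Veh turned to -0.14 for Crh. Without CPIP+ETA 2 the latter was -0.06, and without CPIP+Veh 2 Npy turned to 0.23. For CPIP+ETA against Sham+Veh, Gal turned to 0.22 and Adcyap1 to 0.16 without Sham+Veh 1, Cckbr to 0.23 without Sham+Veh 2, Gal to 0.18 and Adcyap1 to 0.03 without CPIP+ETA 1, and Nts to -0.025 without CPIP+ETA 2. The cause was not tested. With each library left out in turn, ranges for CPIP+Veh against Sham+Veh were 3.70 to 6.25 for Npy, 0.68 to 1.58 for Gal, 0.82 to 1.32 for Nts, 0.20 to 0.55 for Adcyap1, -0.25 to 0.06 for Crh and 1.08 to 2.08 for Cckbr. For CPIP+ETA against CPIP+Veh they were -3.88 to 0.23 for Npy, -1.64 to -0.74 for Gal, -6.43 to -2.31 for Vip, -1.07 to -0.14 for Nts and -0.14 to 0.17 for Crh. For CPIP+ETA against Sham+Veh they were 1.60 to 4.79 for Npy, -0.32 to 0.22 for Gal, -0.02 to 0.91 for Nts, -0.19 to 0.16 for Adcyap1 and -0.76 to 0.23 for Cckbr.

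DESeq2 called 2 members for CPIP+Veh against Sham+Veh, and 0 to 2 with a library left out. Over all genes, DESeq2 called 49, 21 and 50 for CPIP+Veh against Sham+Veh, CPIP+ETA against CPIP+Veh and CPIP+ETA against Sham+Veh, where edgeR called 3, 0 and 3. For CPIP+ETA against Sham+Veh, limma-voom and the fit of only the 2 groups each called 1. Leaving out a library gave 1 to 3 genes for CPIP+Veh against Sham+Veh (1 without CPIP+Veh 2) and 1 to 2 for CPIP+ETA against Sham+Veh (1 without CPIP+Veh 1, CPIP+Veh 2 or CPIP+ETA 1).

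With the title number as a replicate block, edgeR called 3, 0 and 3 genes and 0 members, and for CPIP+Veh against Sham+Veh the adjusted p of Npy moved from 0.85 to 0.0549 and that of Vip from 0.477 to 0.314. Deviations of same-numbered libraries had correlations of 0.02, -0.09 and 0.10 across all genes, which cannot show how a subset of genes behaved. The labels do not say whether the number marks an animal, batch or day, and its part in the members' values was not tested. Nts was below 1 CPM in 5 libraries and could not be fitted under that filter, nor could Vip, Nts and Cckbr with only CPIP+ETA and Sham+Veh in the fit.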
